A study of Mus musculus with 11 samples.

Results

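The genes of the matrix proteases and their inhibitors were taken from the count tables by symbol: every row named as a matrix metalloproteinase (Mmp), a disintegrin and metalloproteinase with thrombospondin motifs (Adamts), an Adamts-like protein (Adamtsl) or a tissue inhibitor of metalloproteinases (Timp). They were 51 of 24062 genes, namely 23 Mmp, 19 Adamts, 5 Adamtsl and 4 Timp genes. RNA-seq was performed on mesenchymal cells of mouse lungs at embryonic day 15, from 4 WT (Sp3+/+), 4 Sp3+/- and 3 Sp3-/- libraries. The embryos came from matings of Sp3+/- mice, so the genotypes differ in the number of intact copies of Sp3, a transcription factor that binds GC boxes. The cells were obtained by their rapid adhesion to plastic and were passaged before RNA isolation, so the libraries describe cultured cells rather than lung tissue, and no agent was given to any group. Libraries are named here by genotype and by the numbers in their titles. The labels do not say that each library came from a separate embryo, so the p-values measure the spread between these libraries.

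Matrix metalloproteinases are zinc enzymes that cut collagens, elastin and other matrix proteins, either secreted or held at the cell surface. Adamts enzymes cut proteoglycans such as versican, trim procollagens or act near fibrillin microfibrils, while Adamtsl proteins share their non-catalytic domains and have no protease domain. Timp proteins bind the active site of these enzymes and block it, and in the developing lung the balance between them shapes the matrix around the airways.

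Reads on genes ranged from 9849111 to 59297495 per library, with Sp3-/- 697-5 the smallest. Sp3 itself fell in Sp3-/- cells, with log2 CPM (read counts scaled to a common library total, with TMM factors) of 4.24 in 685-1, 4.20 in 697-2 and 3.86 in 697-5 against 5.92 to 6.75 in WT (log2 fold change -2.30, SE 0.21, adjusted p = 0.0061 by edgeR). The mesenchymal marker genes were abundant in every library, summing to between 13100 and 22100 CPM in WT and between 7100 and 19100 CPM in Sp3-/-, with 4 of the 10 called lower and a median log2 fold change of -0.87. Markers of some other cells were not equal between genotypes. The 9 macrophage markers in the tables summed to 955 CPM in WT 468-4 and to 209 to 243 CPM in the other WT libraries. In Sp3-/- they summed to 961 CPM in 685-1, 3140 CPM in 697-2 and 2230 CPM in 697-5, and 5 of the 9 were called higher. In Sp3+/- they summed to 805 CPM in 697-4 and to 118 to 206 CPM in the other libraries. The 6 mesothelial markers summed to 697 to 1660 CPM in WT and 2030 to 5660 CPM in Sp3-/-, with 3 called higher. The 7 epithelial markers summed to 14.5 to 33.6 CPM and 46.4 to 151 CPM. Of 6 tested, 3 were called higher (Epcam, Cdh1 and Krt18) and 2 had a negative fold change. Krt18 made up most of these sums, with log2 CPM of 3.63 to 4.66 in WT and 6.70, 5.86 and 5.19 in Sp3-/-. Nkx2-1 of the same list had -3.93 to 0.30 in WT and -2.28, -2.91 and -2.59 in Sp3-/-. The 7 neutrophil markers stayed at or under 4.01 CPM in sum in every library. The 6 endothelial markers summed to 27.3 to 72.8 CPM in WT and 39.9 to 47.6 CPM in Sp3-/-, inside the WT range, with 0 called. Over all genes tested, 8.76% were called higher and 9.77% lower. In such bulk RNA, fewer cells of a type and less RNA per cell cannot be told apart. The part of these other cells in the results below was not tested. Library titles end in no suffix, 2 or 3, and the labels do not explain it. The deposited name of Sp3+/- 697-4 carries a suffix although its title does not, and the title was followed. The libraries without a suffix, 697-4 among them, had macrophage sums of 805 to 3140 CPM, and those with a suffix 118 to 243 CPM. In these libraries the suffix and the macrophage sum cannot be told apart. All 3 Sp3-/- libraries and WT 468-4 have no suffix while the other WT libraries end in 3. The called members, the families and the gene lists are therefore also given from a fit that added the suffix as a covariate and took in all 11 libraries. With every Sp3-/- library lacking a suffix, its effect there rests on WT 468-4 and Sp3+/- 697-4. In that fit 0 of the 9 macrophage markers were called (median 1.26), and 1 mesothelial and 1 epithelial marker were called higher. Of the mesenchymal markers 1 was called higher and 2 lower, with a median of -0.36, while 9.41% of all genes were called.

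Promoter stretches are shown for 6 members whose expression differed most clearly or which stand for a type of promoter. Each is the 120 bases upstream of the RefSeq start of the gene (GRCm38.p6), 5′ to 3′ on the strand of the gene. Capitals mark the letters of a GC box (GGGCGG on either strand), an AP-1 site (TGANTCA, its own reverse complement) or a TATA box (TATAAA, on the strand of the gene only). In Adamtsl3 the last capitals begin a GC box that runs past the stretch.
Mmp13 (chr9:7272394-7272513, plus strand): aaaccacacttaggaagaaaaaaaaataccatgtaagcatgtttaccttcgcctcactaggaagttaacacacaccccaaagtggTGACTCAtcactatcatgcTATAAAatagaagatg
Mmp10 (chr9:7502222-7502341, plus strand): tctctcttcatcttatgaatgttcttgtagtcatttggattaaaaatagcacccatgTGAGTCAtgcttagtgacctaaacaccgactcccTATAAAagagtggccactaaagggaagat
Mmp8 (chr9:7558309-7558428, plus strand): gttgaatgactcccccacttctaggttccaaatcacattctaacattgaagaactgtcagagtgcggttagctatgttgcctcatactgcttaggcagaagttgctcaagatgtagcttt
Mmp11 (chr10:75932503-75932622, minus strand): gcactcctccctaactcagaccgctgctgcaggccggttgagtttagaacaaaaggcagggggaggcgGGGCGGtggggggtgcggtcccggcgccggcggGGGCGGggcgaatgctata
Adamtsl3 (chr7:82335574-82335693, plus strand): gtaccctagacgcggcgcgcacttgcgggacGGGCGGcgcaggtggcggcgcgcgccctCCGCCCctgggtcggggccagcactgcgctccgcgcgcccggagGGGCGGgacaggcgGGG
Timp3 (chr10:86300292-86300411, plus strand): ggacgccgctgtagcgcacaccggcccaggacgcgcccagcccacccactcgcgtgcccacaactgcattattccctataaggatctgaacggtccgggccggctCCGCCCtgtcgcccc

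By these letters the cluster on chromosome 9 differed from most other members, though some members fitted neither pattern. Of the 51 members, 36 had a RefSeq promoter window, which runs from 250 bases before the start to 50 bases after it. A GC box was present in 22 of the 36 (61.1%), against 38.2% of the 27025 genes in the RefSeq table. The 10 Mmp genes of the cluster on chromosome 9 held none, while 22 of the other 26 members did (84.6%). The AP-1 letters showed the opposite: they were in 8 of the 10 cluster genes and in 0 of the 26 others, against 8.97% of all genes. TATAAA was in 8 of the 10 and in 3 of the 26, against 9.77% of all genes. Mmp8 and Mmp27 were the 2 cluster genes with neither. Outside the cluster, Timp4, Adamts12 and Adamts17 had none of these letters, and Mmp21 had only TATAAA. Adamts1 and Adamtsl2 had both a GC box and TATAAA. The members with no promoter window all lie outside the cluster. These matches describe letters in a window and say nothing of whether a factor binds there.

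Of the 51 members, 39 had more than 1 CPM in at least 1 of the 7 WT and Sp3-/- libraries and were tested. In Sp3-/- against WT, 7 were called higher and 6 lower at an adjusted p below 0.05 over all genes tested (edgeR quasi-likelihood). That is 33.3% of the 39, against 18.5% of the 14025 genes tested, or 8.76% higher and 9.77% lower. The median log2 fold change over the members was -0.43, against -0.003 over all genes. With the suffix as a covariate, 5 were called higher and 4 lower of 40, or 22.5% against 9.41% of all genes, and the median was -0.13. The Sp3-/- and WT libraries did not overlap for 14 of the 39 members, where the share over all genes was 31.3%. By that measure the members stood close to the background. Leaving out Sp3-/- 697-2 cut the calls over all genes from 2599 to 282. Leaving out WT 685-2, WT 697-1 or WT 697-3 left 893, 766 or 802, and the other fits without a library gave 1408 to 4179.

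**Figure D1:**
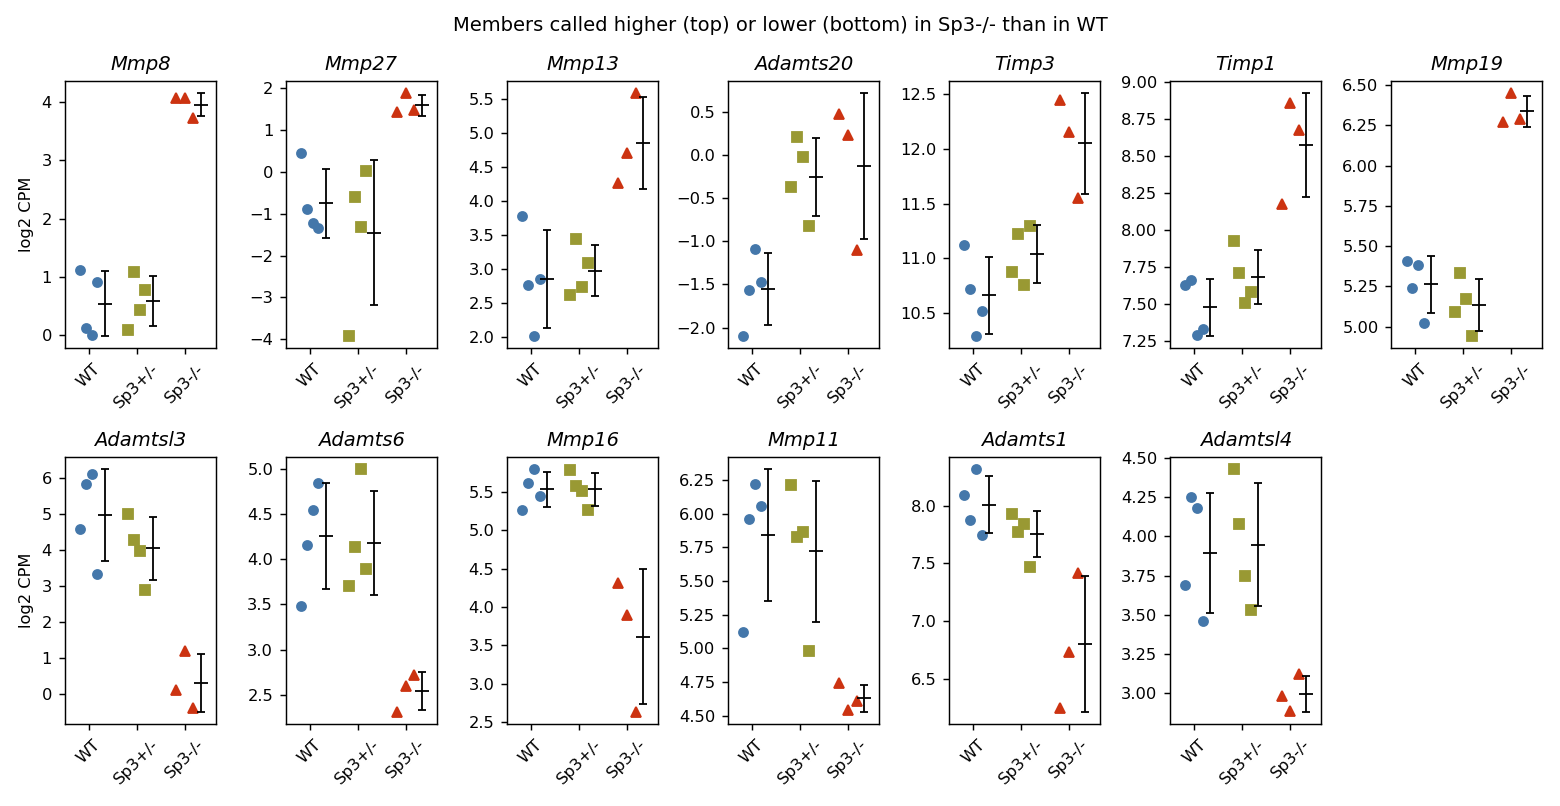
Log2 CPM (TMM normalization) of the 13 members called in Sp3-/- against WT, one point per library, with 4 WT, 4 Sp3+/- and 3 Sp3-/- libraries and the mean with its SD at the right of each group. The axes differ between genes; the Sp3-/- points lie apart from the WT points in every panel but that of Adamts20.

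Both tested collagenases, which cut fibrillar collagen, rose in Sp3-/- cells. Mmp8, known as neutrophil collagenase, had log2 CPM of 1.12, 0.12, -0.01 and 0.91 in WT 468-4, 685-2, 697-1 and 697-3, and 4.07, 4.08 and 3.73 in Sp3-/- 685-1, 697-2 and 697-5. Every Sp3-/- library stood above every WT library, and the fold change was the largest rise among the members (log2 fold change 3.38, SE 0.31, adjusted p = 0.0061). It held with the suffix as a covariate (3.10, adjusted p = 0.0058) and without any one library. WT 468-4 and Sp3-/- 685-1 had macrophage sums of 955 and 961 CPM at Mmp8 levels of 1.12 and 4.07, but this single pair differed in the mesothelial sum (1660 and 5660 CPM) and the epithelial sum (27.4 and 151 CPM), and the part of other cells in the rise of Mmp8 was not tested. Mmp13, the collagenase-3 of cartilage and bone, had 3.77, 2.77, 2.01 and 2.85 in WT and 4.26, 4.70 and 5.58 in Sp3-/-. The groups did not overlap, and Mmp13 rose by 1.96 (SE 0.46, adjusted p = 0.0301). With the covariate its fold change was 1.53 and was no longer called (adjusted p = 0.0900), and the call was also lost without Sp3-/- 697-2, Sp3-/- 697-5, WT 685-2, WT 697-1 or WT 697-3, at adjusted p between 0.0678 and 0.0852. Mmp1a and Mmp1b, the mouse counterparts of interstitial collagenase, had at most 6 reads in any library and were not tested.

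Mmp27 and Mmp19 rose as well. Mmp27 had log2 CPM of 0.44, -0.88, -1.22 and -1.35 in WT and 1.43, 1.88 and 1.47 in Sp3-/-, on 7 to 46 and 27 to 160 reads. It rose by 2.24 (SE 0.50, adjusted p = 0.0269), and by 1.41 with the covariate (adjusted p = 0.0484). Its call was lost without Sp3-/- 697-2, Sp3-/- 697-5, WT 685-2, WT 697-1 or WT 697-3, at adjusted p between 0.0536 and 0.1026. Mmp19, a secreted protease of basement membranes, had 5.41, 5.24, 5.38 and 5.02 in WT and 6.27, 6.45 and 6.29 in Sp3-/-. These 2 groups were tight and separate, and the rise of 1.06 (SE 0.12, adjusted p = 0.0071) was 1.08 with the covariate (adjusted p = 0.0090) and held without any one library. Of the exon bases of Mmp19, 30.6% overlap Tmem198b in GENCODE M39, and the strand setting of the counting is not given in the sources used here, so its count is uncertain to that extent.

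Mmp8, Mmp13 and Mmp27 all lie in the Mmp cluster of chromosome 9 (chr9:7272514-7699585 in GRCm38.p6), in the order Mmp13, Mmp12, Mmp1b, Mmp3, Mmp1a, Mmp10, Mmp8, Mmp27, Mmp20 and Mmp7. Of its 10 genes 6 were tested and 3 were called (50.0%), all higher, with a median of 1.96. Of the 13 other Mmp genes 11 were tested, 1 was called higher and 2 lower (27.3%), with a median of -0.84. The share over all genes was 18.5%. With the covariate the cluster had 2 called higher (33.3%) and a median of 1.66. The other Mmp genes then had 1 higher and 3 lower (36.4%) with a median of -0.48, against 9.41% of all genes. Mmp10, or stromelysin-2, had 2.16, 2.49, 1.84 and 3.39 in WT and 2.89, 4.18 and 5.47 in Sp3-/-. Its groups overlapped and its fold change of 1.95 was not called (SE 0.62, adjusted p = 0.0656). Mmp3, or stromelysin-1, ranged from 1.18 to 3.78 in WT and from 0.22 to 3.80 in Sp3-/-, with a fold change of 0.27 (adjusted p = 0.8413) that was 1.78 with the covariate (adjusted p = 0.3063). Mmp7 and Mmp20 had 0 reads in all 11 libraries.

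**Figure D2:**
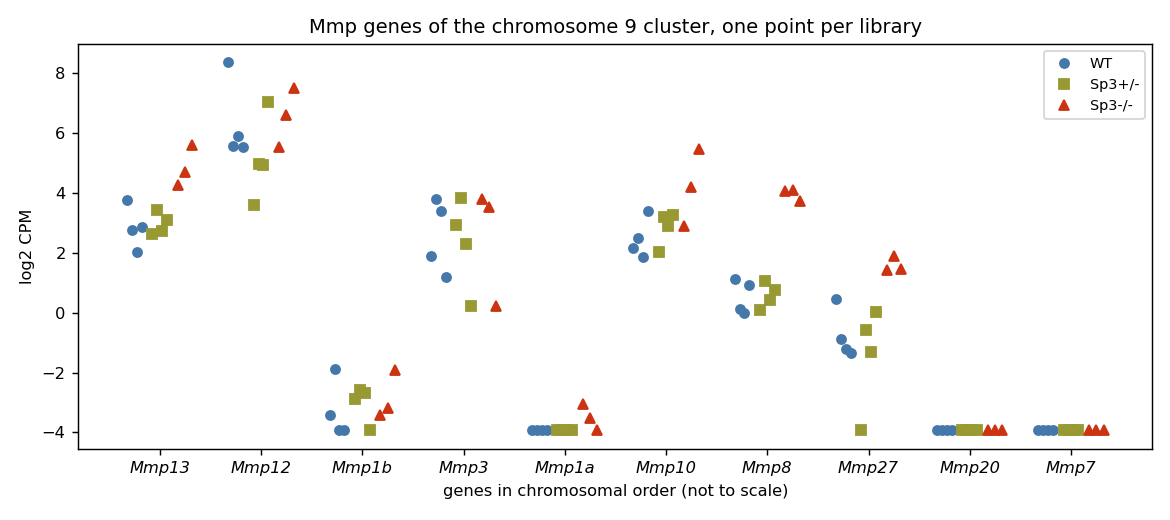
Log2 CPM of the 10 Mmp genes of the chromosome 9 cluster in chromosomal order, evenly spaced, with one point per library and one colour per genotype. The Sp3-/- points of Mmp13, Mmp8 and Mmp27 lie above those of WT, those of Mmp12 and Mmp3 are mixed with them, and the points at -3.93 are libraries with 0 reads.

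Mmp12, the macrophage elastase, also lies in the cluster and did not separate the genotypes. Its log2 CPM was 8.35 in WT 468-4, the WT library with the highest macrophage sum, and 5.51 to 5.91 in the other WT libraries. In Sp3-/- it was 5.54, 6.60 and 7.51, inside the WT range, and its fold change was -0.14 (SE 0.83, adjusted p = 0.9190). The size and sign of that value depended on the fit: it was -1.41 with the covariate (adjusted p = 0.0942) and ran from -0.76 without Sp3-/- 697-5 to 1.09 without WT 468-4, with no call in any of these.

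**Figure D3:**
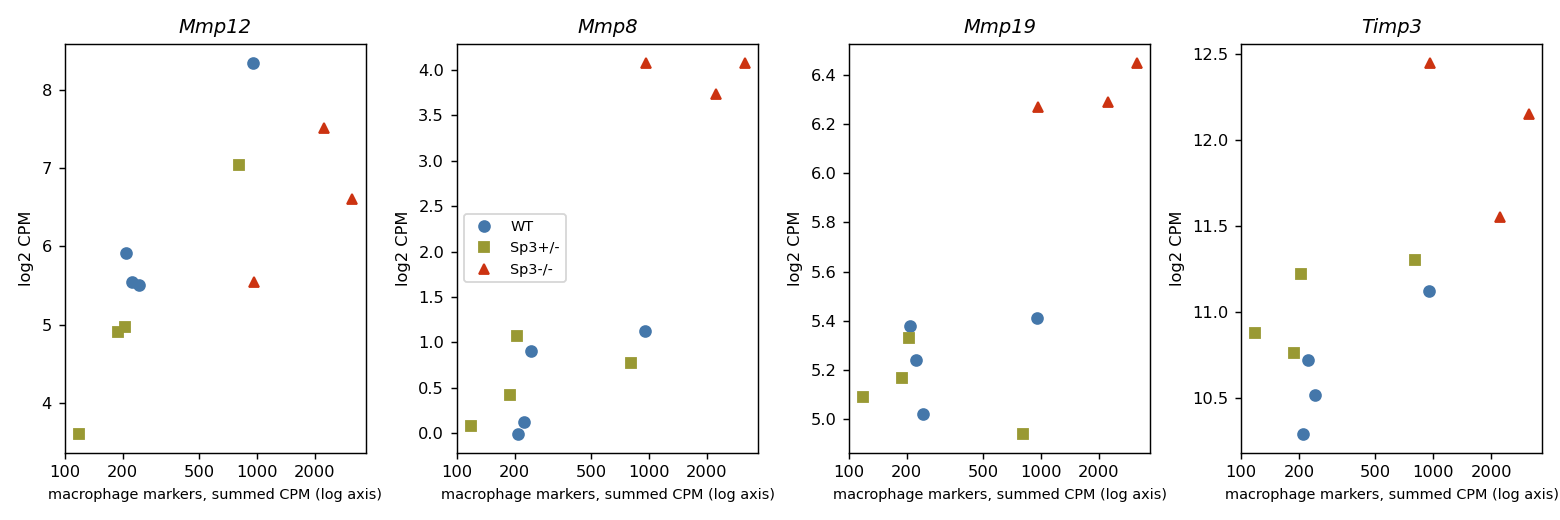
Log2 CPM of Mmp12, Mmp8, Mmp19 and Timp3 in each of the 11 libraries against the summed CPM of 9 macrophage markers (log axis). At macrophage sums of 955 and 961 CPM, WT 468-4 and Sp3-/- 685-1 differ in Mmp8 (1.12 and 4.07), in Mmp19 (5.41 and 6.27) and in Timp3 (11.12 and 12.45); the pair also differs in mesothelial sums (1660 and 5660 CPM).

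The 2 most abundant proteases did not pass the test. Per kilobase of exon, Mmp14, the membrane-anchored activator of proMmp2, averaged 119 CPM in WT and 91.2 CPM in Sp3-/-, and Mmp2, or gelatinase A, 95.7 and 115 CPM. Together they made up 62.0% to 79.0% of the summed Mmp level in WT and 56.0% to 75.4% in Sp3-/-. Mmp2 had log2 CPM of 8.0, 8.57, 8.51 and 8.46 in WT and 8.74, 8.97 and 8.19 in Sp3-/- (log2 fold change 0.26, SE 0.21, adjusted p = 0.3999). Mmp14 had 8.99, 9.57, 9.59 and 9.82 in WT and 9.49, 9.21 and 8.56 in Sp3-/- (-0.39, SE 0.26, adjusted p = 0.3035), and its sign turned with the covariate, to 0.04. Both genes overlapped between genotypes.

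Mmp11 and Mmp16 fell. Mmp11, or stromelysin-3, a protease of stromal cells, had 5.12, 5.96, 6.22 and 6.06 in WT and 4.74, 4.54 and 4.61 in Sp3-/-. WT 468-4 stood nearest to the Sp3-/- libraries, and the fall was 1.27 on the log2 scale (log2 fold change -1.27, SE 0.25, adjusted p = 0.0207). With the covariate it was -0.54 (adjusted p = 0.0245), and the call was lost without Sp3-/- 697-2, Sp3-/- 697-5, WT 685-2, WT 697-1 or WT 697-3, at adjusted p between 0.0520 and 0.0827. Mmp16, a membrane-anchored protease, had 5.27, 5.61, 5.80 and 5.45 in WT and 4.31, 3.90 and 2.63 in Sp3-/- (-1.77, SE 0.35, adjusted p = 0.0202). The WT libraries were tight while Sp3-/- 697-5 was the lowest, and the covariate fit gave -1.51 (adjusted p = 0.0361). The call of Mmp16 was lost without Sp3-/- 697-2, WT 685-2, WT 697-1 or WT 697-3, at adjusted p between 0.0527 and 0.0761. Mmp28 was just outside the threshold (-0.91, adjusted p = 0.0512) and inside it with the covariate (-1.26, adjusted p = 0.0225). Of the 7 membrane-anchored Mmp genes 6 were tested, 5 with a negative fold change, and 1 was called (16.7%, against 18.5% of all genes).

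**Figure D4:**
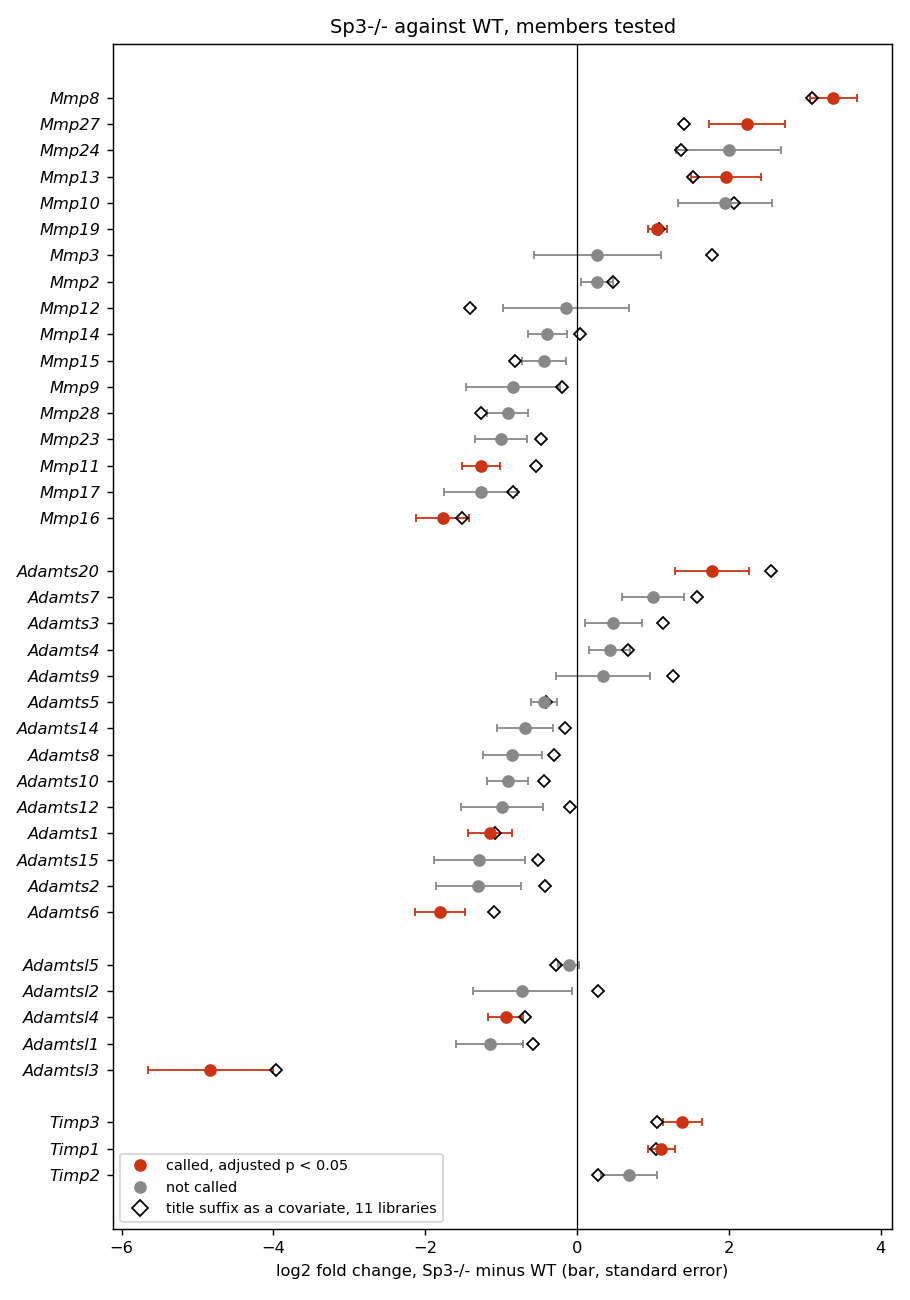
Log2 fold changes of the 39 tested members, Sp3-/- minus WT, by family, with bars for the standard error. Filled red points were called, grey points were not, and open diamonds give the value with the title suffix as a covariate; the filled points of all 5 Adamtsl genes lie below 0, though the diamond of Adamtsl2 is at 0.28, and the 3 tested Timp genes lie above 0.

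Among the Adamts genes, 14 were tested, of which 1 was called higher and 2 lower (21.4%, against 18.5% of all genes), with a median of -0.77. With the covariate 1 was called higher and 0 lower of 15 (6.67%, against 9.41% of all genes), and the median was -0.16. Adamts1, a versican-cutting protease and the most abundant Adamts per kilobase at 47.6 CPM in WT, had log2 CPM of 8.09, 7.88, 8.32 and 7.75 in WT and 6.25, 6.73 and 7.42 in Sp3-/-. It fell (-1.15, SE 0.29, adjusted p = 0.0376), but not past the threshold with the covariate (-1.08, adjusted p = 0.0748), nor without Sp3-/- 685-1, Sp3-/- 697-2, WT 685-2, WT 697-1 or WT 697-3, at adjusted p between 0.0587 and 0.1293. Adamts5, its neighbour on chromosome 16 and an aggrecanase, had 8.26, 8.10, 8.36 and 8.38 in WT and 8.22, 7.73 and 7.50 in Sp3-/-. That difference was not called (-0.43, SE 0.17, adjusted p = 0.1029).

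Adamts6, which acts on microfibrils, had 3.48, 4.16, 4.54 and 4.84 in WT and 2.31, 2.60 and 2.72 in Sp3-/-. It fell with no overlap (-1.81, SE 0.33, adjusted p = 0.0166), and the call was lost only without Sp3-/- 697-2 (adjusted p = 0.0667) among the 7 fits that leave out a library, and with the covariate (-1.09, adjusted p = 0.0597). Its close relative Adamts10 had a fold change of -0.91, just outside the threshold (adjusted p = 0.0514). Adamts20, a versican protease of the embryo, was near the floor of detection, with log2 CPM of -2.10, -1.56, -1.09 and -1.47 in WT and 0.47, 0.23 and -1.10 in Sp3-/-, on 4 to 49 reads. Sp3-/- 697-5, with 4 reads, overlapped WT. It was called higher (1.78, SE 0.49, adjusted p = 0.0431) and with the covariate (2.56, adjusted p = 0.0233), but not without Sp3-/- 685-1, Sp3-/- 697-2 or any one WT library, at adjusted p between 0.0506 and 0.1421. The procollagen N-propeptidases Adamts2, Adamts3 and Adamts14 gave no call. In Adamts2 the lowest library was Sp3-/- 697-5 at 2.90, against 5.38 and 4.97 in the other Sp3-/- libraries and 5.14 to 6.66 in WT.

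Adamtsl3 had the largest change of any member. Its log2 CPM was 4.59, 5.84, 6.12 and 3.32 in WT and 0.10, 1.19 and -0.38 in Sp3-/-, on 334 to 1717 reads and 7 to 98 reads. The groups were far apart although WT 697-3 was well under the other WT libraries, and the fold change was -4.83 (SE 0.82, adjusted p = 0.0144), or -3.97 with the covariate (adjusted p = 0.0213). Without Sp3-/- 697-2 the call was lost at an adjusted p of 0.0547. Adamtsl4, a fibrillin-binding protein of the eye's ligament, had 3.69, 4.25, 4.18 and 3.46 in WT and 2.98, 2.89 and 3.12 in Sp3-/-. It fell (-0.94, SE 0.23, adjusted p = 0.0324), with the covariate giving -0.68 (adjusted p = 0.1176), and lost its call without Sp3-/- 685-1, Sp3-/- 697-2, Sp3-/- 697-5, WT 685-2 or WT 697-1, at adjusted p between 0.0603 and 0.1199. All 5 Adamtsl genes had negative fold changes in the fit of 7 libraries, with a median of -0.94. Of them 2 were called (40.0%, against 18.5% of all genes). With the covariate Adamtsl2 turned to 0.28, the median was -0.58 and 1 was called (20.0%, against 9.41% of all genes).

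Of the 3 tested inhibitors, 2 rose and were called (66.7%, against 18.5% of all genes). Timp1, a secreted inhibitor also known as a growth factor for red cell precursors, had log2 CPM of 7.63, 7.66, 7.29 and 7.33 in WT and 8.18, 8.86 and 8.68 in Sp3-/-. It rose without overlap (1.11, SE 0.18, adjusted p = 0.0134), and with the covariate (1.04, adjusted p = 0.0259), and lost its call only without Sp3-/- 697-2 (adjusted p = 0.0558) among the fits that leave out a library. Timp3, the inhibitor that stays bound to the matrix, had 11.12, 10.72, 10.29 and 10.52 in WT and 12.45, 12.15 and 11.55 in Sp3-/-. It rose by 1.39 (SE 0.26, adjusted p = 0.0171), and by 1.06 with the covariate, just outside the threshold (adjusted p = 0.0523). Its call was lost without Sp3-/- 697-2, WT 685-2, WT 697-1 or WT 697-3, at adjusted p between 0.0528 and 0.0668, and 21.3% of its exon bases overlap Syn3. Timp2, the most abundant member at 619 CPM per kilobase in WT, had 12.09, 11.39, 11.02 and 10.92 in WT and 11.83, 11.63 and 12.67 in Sp3-/-. WT 468-4 lay inside the Sp3-/- range and the difference was not called (0.69, SE 0.37, adjusted p = 0.2129). Timp4 had at most 6 reads in any library.

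Summed over a family, per kilobase of exon, the Mmp level was close between genotypes, at 249 to 312 CPM in WT and 256 to 327 CPM in Sp3-/-. The Adamts sum was lower, at 104 to 141 CPM in WT and 67.1 to 87.8 CPM in Sp3-/-, and the Timp sum was higher, at 696 to 1350 CPM and 1510 to 2040 CPM. The ratio of Timp to the sum of Mmp and Adamts was 3.83 in WT 468-4 and 1.57 to 2.21 in the other WT libraries, against 4.10, 3.75 and 6.30 in Sp3-/-. By that ratio WT 468-4 lay among the Sp3-/- libraries. These sums describe mRNA levels, were not tested, and do not measure protease activity.

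**Figure D5:**
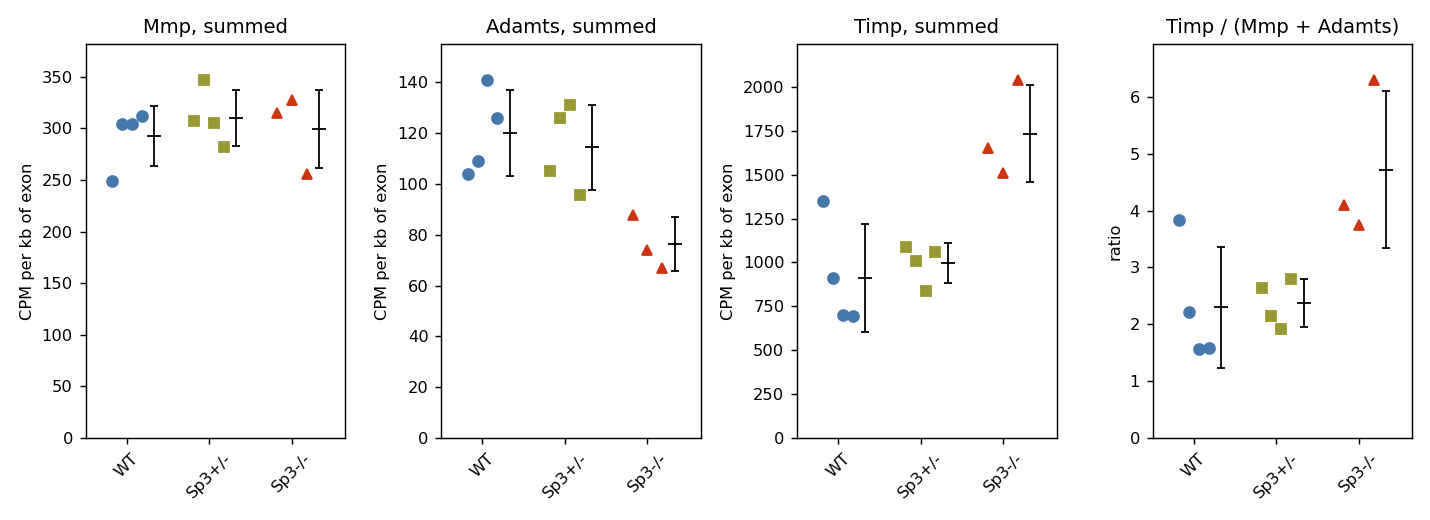
Summed CPM per kilobase of exon of the Mmp, Adamts and Timp genes, and the ratio of Timp to Mmp plus Adamts, in each of the 11 libraries, with the mean and SD of each genotype at its right. The Mmp sums overlap, the Adamts sums of Sp3-/- (67.1 to 87.8) lie below and the Timp sums (1510 to 2040) above those of WT, and the ratio of WT 468-4 (3.83) lies within the Sp3-/- range.

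A single intact copy of Sp3 was compared with both other genotypes in a fit of all 11 libraries, in which 40 members were tested. Sp3 itself had log2 CPM of 5.70 to 6.16 in Sp3+/-, overlapping the 5.92 to 6.75 of WT. Its log2 fold change in Sp3+/- against WT was -0.49 (SE 0.16) and was not called. In Sp3+/- against WT, edgeR called 0 of the 40 members and 0.0% of the 14130 genes, as did DESeq2 and limma-voom. At an unadjusted p under 0.05 there were 3 members by each of the 3 tools, and 246, 281 and 303 genes. In edgeR the 3 members were Mmp9, Adamts8 and Adamts20, with log2 fold changes of -1.51, 0.97 and 1.52. Adamts20 had log2 CPM of -0.37, 0.21, -0.03 and -0.83 in Sp3+/- 468-3, 685-5, 685-7 and 697-4, above all 4 WT libraries, on 10 to 64 reads.

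In Sp3-/- against Sp3+/-, 7 members were called higher and 9 lower of 40, against 25.5% of all genes, or 13.0% higher and 12.5% lower. This comparison shares the Sp3-/- libraries with the one against WT, but its counts come from 11 libraries and those against WT from 7. Fitted on only the 7 libraries compared, it called 12 of 39 members and 3227 of 13978 genes. With all 11 libraries in one fit, Sp3-/- against WT called 20 of 40 members and 3977 of 14130 genes. Mmp8 had 0.08, 1.07, 0.42 and 0.77 in Sp3+/- (log2 fold change 3.37, adjusted p = 5.86e-04), and Mmp19 had 5.09, 5.33, 5.17 and 4.94 (1.20, adjusted p = 5.86e-04). Timp1 had 7.93, 7.71, 7.51 and 7.58 (0.91, adjusted p = 0.0065) and Timp3 10.88, 11.22, 10.76 and 11.30 (1.03, adjusted p = 0.0143). For each of the 4 genes the Sp3+/- range overlapped that of WT and lay below that of Sp3-/-. The other members called higher were Mmp13 (1.95), Mmp27 (2.62) and Mmp24 (1.96), and Mmp24, a membrane-anchored protease of neurons, had only just passed (adjusted p = 0.0497).

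Adamtsl3 had 5.01, 4.28, 3.98 and 2.90 in Sp3+/- (-3.72, adjusted p = 0.0099), and Adamts6 had 3.70, 4.14, 5.00 and 3.89 (-1.75, adjusted p = 0.0107). Mmp16 had 5.78, 5.58, 5.51 and 5.26 (-1.76, adjusted p = 0.0049) and Mmp11 6.21, 5.83, 5.86 and 4.98 (-1.16, adjusted p = 0.0205). For each of them the Sp3-/- libraries lay below all Sp3+/- libraries. The other members called lower were Adamts1 (-0.88), Adamtsl4 (-1.0), Mmp17 (-1.27), Adamts8 (-1.83) and Adamts10 (-0.85). Adamts8, an aggrecan-cutting protease, had 0.34, 2.35, 1.17 and 1.29 in Sp3+/- and -0.28, -0.05 and -0.59 in Sp3-/-, with -0.05 to 0.99 in WT. With the covariate, 3 members were called higher (Mmp8, Mmp19 and Timp1) and 1 lower (Adamts6), while calls over all genes fell from 3607 to 763 of 14130. Without Sp3-/- 697-2 the member counts were 6 and 3, with 1490 of 14110 genes called. Without Sp3+/- 685-5 or 685-7 the member counts were 5 and 5, with 2069 and 1887 genes called. Without Sp3-/- 697-5 they were 7 and 5, with 2405 genes called. Mmp8, Mmp13, Mmp19, Timp1, Timp3, Mmp16, Adamts6 and Adamtsl3 kept their call whichever of the 7 Sp3-/- and Sp3+/- libraries was removed. These fits also held the WT libraries, unlike those of Sp3-/- against WT, which held no Sp3+/- library.

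Other genes of the pathway were counted in Sp3-/- against WT. Of 19 genes that activate, inhibit or clear the proteases, 16 were tested, with 1 called higher and 2 lower and a median of 0.10. That is 18.8%, against 18.5% of all genes, so the list stood at the background in this fit. With the covariate 1 was called higher and 2 lower of 16 (18.8%, against 9.41% of all genes), and the median was -0.08. Pcolce, which enhances the trimming of procollagen at its C-terminal end, was lower (-2.31, adjusted p = 0.0170), also with the covariate (-1.30, adjusted p = 0.0354). Spock2, a matrix proteoglycan, was higher (1.71, adjusted p = 0.0299), but was not called with the covariate (1.60, adjusted p = 0.0812). Of the 7 fits that left a library out, Pcolce kept its call in 6 and Spock2 in 1.

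Of 13 tested Adam and tolloid genes 1 was called higher and 4 lower (38.5%, against 18.5% of all genes), and with the covariate 0 higher and 2 lower (15.4%, against 9.41%). Tll1, a procollagen C-proteinase, was at -2.37 (adjusted p = 0.0073) and at -2.11 with the covariate (adjusted p = 0.0064), and was called without any one library. Adam12 was at -2.01 (adjusted p = 0.0391), but at -1.0 with the covariate and not called (adjusted p = 0.1817). It kept its call in 1 of the 7 fits that left a library out.

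Of 14 tested matrix substrates 1 was called higher and 4 lower (35.7%, against 18.5% of all genes), with a median of -1.05. With the covariate 0 were called higher and 2 lower (14.3%, against 9.41%), and the median was -0.25. Eln, the gene of elastin, had a fold change of -5.04 (adjusted p = 0.0357), but of -2.48 with the covariate (adjusted p = 0.1249), and was called only without WT 468-4 among the 7 fits that left a library out, with adjusted p between 0.0537 and 0.0920 in the others. Fbn1, the gene of fibrillin-1, was at -1.71 (adjusted p = 0.0266) and at -0.80 with the covariate (adjusted p = 0.0755). The proteoglycan genes Bcan and Bgn were called both without the covariate (-1.43 and -1.41) and with it (-1.99 and -1.03). Among the 7 fits that left a library out, Bgn kept its call in 6, and Bcan and Fbn1 in 2 each. Bcan was low, with log2 CPM of 0.40 to 1.36 in WT and -0.72 to 0.09 in Sp3-/-.

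The remaining 11 members that were not tested against WT besides Timp4 had at most 40 reads in any library. Adamts18 had 0 reads in all 3 Sp3-/- libraries and 0 to 20 in WT. Adamts17 had 2 to 6 reads in Sp3-/- and 10 to 16 in WT. Adamts16 passed the filter only where the Sp3+/- libraries were in the fit.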

How the data were processed

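The authors aligned 50 bp single-end reads of TruSeq libraries to mm10 with STAR 2.4.5a, after FastQC 0.10.1, and deposited raw counts per gene from htseq-count, one table per library. The annotation release and strand setting are not given in the sources used here. Rows that tally reads on no gene were left out of totals and tests (38.4% to 40.9% of reads, most of them aligned to several places). From these deposited counts, a gene entered the test when any library of its fit exceeded 1 CPM, and was tested with edgeR 4.0.16 (TMM, robust quasi-likelihood) in R 4.3.3, with Benjamini-Hochberg adjustment over all tested genes and a threshold of 0.05. Log2 CPM values used a prior count of 2. Sp3-/- against WT was fitted on 7 libraries and both comparisons with Sp3+/- on all 11. Alternatives used DESeq2 1.42.0, limma 3.58.1, other normalizations, filters and covariates, and left out each library in turn. The code was tested on simulated data.

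The members and gene lists were chosen with earlier results of these data known. Values in every library are given for called members, the Timp genes and the most abundant members, and of the other lists at most 4 called genes are named, by the size of their change. Gene positions and promoters are from RefSeq (GRCm38.p6) for 51 and 36 members, exon lengths from GENCODE M39 (GRCm39) for all 51. Protein motifs were not analysed here. Library counts of one genotype differed by more than sampling noise in every pair. Depth limits members with under about 1 CPM.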

Additional observations from a re-analysis of the deposited data

Results flagged for a closer look

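In 78 sets of 4 libraries (39 members in WT and in Sp3+/-), 2 held a library far from the other 3 by Dixon's test, which marks about 1 set in 20 by chance. Mmp12 had a log2 CPM of 8.35 in WT 468-4, against 5.51 to 5.91 in the other WT libraries. The summed macrophage markers were also highest there among WT, at 955 CPM. Mmp9, or gelatinase B, had a log2 CPM of -3.93 in Sp3+/- 468-3, which is 0 reads, against -0.90 to -0.71 in the other Sp3+/- libraries.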

How the results depend on the processing

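In Sp3-/- against WT, the 7 members called higher became 0 and the 6 called lower became 0 among the libraries without a title suffix (3 Sp3-/- and 1 WT library, the lone WT library being assumed to vary like the Sp3-/- ones), where edgeR called 0 of 13752 genes, with 1337 genes and 11 members at an unadjusted p under 0.05. The number called lower was 12 with DESeq2 and 11 with all 11 libraries in one fit. Over all genes these fits called 4297 of 14025 and 3977 of 14130. Leaving out 1 library gave 2 to 7 higher and 0 to 9 lower, with the fewest, 2 and 0, without Sp3-/- 697-2. The fit without Sp3-/- 697-2 called 282 of 14004 genes, against 2599 of 14025 with every library. Without WT 685-2 or WT 697-1 the member counts were 3 and 2, and without WT 697-3 they were 3 and 3. Over all genes these fits called 893, 766 and 802, in that order. In Sp3-/- against Sp3+/-, the suffix covariate gave 3 higher and 1 lower, with 763 of 14130 genes called, against 3607 without it. Leaving out 1 library gave 5 to 7 higher and 3 to 9 lower, with 1490 to 3706 genes called. Sp3+/- against WT had 0 members called in every fit. Mmp14 turned to 0.04 with the suffix covariate and to 0.13 among libraries without a suffix, and was called in neither.

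With the first title number as a replicate block, 6 members were called higher and 9 lower in Sp3-/- against WT. In Sp3-/- against Sp3+/- the counts were 6 and 5. Over all genes, 4031 of 14025 and 2956 of 14130 were called with this block. The labels do not say what that number marks, and libraries that share it did not deviate together in every pair (correlations of -0.34 to 0.29 over 5 pairs of Sp3-/- and WT libraries). All 4 such pairs of Sp3-/- and Sp3+/- libraries correlated positively (0.04 to 0.34, median 0.26), against a median of -0.10 over 8 pairs with different numbers.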
